A study of Mus musculus with 6 samples.

Results

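The organoid barcodes that carried high levels of the claudin gene Cldn4, the 14-3-3 sigma gene Sfn and the keratin gene Krt19 are described here as PATS-like barcodes, after the pre-alveolar type-1 transitional state. They were chosen by measured values. A barcode had to hold at least 10000 UMIs and at least 1 UMI of the epithelial gene Epcam, at least 1000 CPM (UMIs of a gene scaled to the barcode's own total) of Cldn4 and Sfn together, and at least 1000 CPM of Krt19. The gate held 340 barcodes of the 3630 Epcam+ barcodes of that depth, among 14335 organoid barcodes and 33286 barcodes in the series. Of the 340, 146 came from organoids grown with normal FBs and 194 from organoids grown with fibrogenic FBs. The other 1829 and 1461 Epcam+ barcodes of the same depth were the comparison group in each library. Only 1 barcode of the 4 lung FB libraries of the series passed the same limits, in the repetitive bleomycin library.

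AEC2s are the surfactant-secreting progenitors of the alveolus and give rise to AEC1s, the flat cells across which gas is exchanged. Between both states lies a transitional state in which surfactant genes are lost, keratins and tight junction genes are raised, and genes of p53, TGF-β and senescence programs are expressed before AEC1 genes appear. This state is short-lived in normal repair and accumulates in fibrotic lungs.

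The study asked how Pdgfra+ FBs from injured lungs affect AEC2s in coculture. Both organoid libraries were made from tomato+ AEC2s of SpcCreER × Rosa-td26 mice, in which the reporter follows Sftpc (Spc) promoter activity after 2 tamoxifen doses of 1 mg/kg, mixed in Matrigel with GFP+ FBs of the Pdgfra-GFP reporter line. FB donors, which the methods give as male mice of 10 to 14 weeks, received PBS (normal FBs) or 2 U/kg bleomycin (fibrogenic FBs) once by oropharyngeal aspiration and were harvested on day 14. Cells of 3 mice were pooled for each cell type and grown in transwells in MTEC/Plus medium for 2 weeks, with ROCK inhibitor at the start, and AEC2 donors of both culture arms were treated with tamoxifen. The labels and the methods give different ratios of AEC2s to FBs, so the ratio is not stated here. The labels name no sort after the organoids were dissociated, and FB-like barcodes were present in both libraries.

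Each condition was a single library of pooled mice, so differences between mice could not be measured and no test was run. Intervals are exact 95% intervals (Poisson for CPM, Clopper-Pearson for shares) and cover counting error only. A gene was measured where its mean CPM over the compared groups was at least 10, and it was called higher or lower at a log2 ratio of 1 or -1 after 1 CPM was added to each level. The normal FB library held 5441 barcodes with a median of 36841 UMIs and the fibrogenic FB library 8894 barcodes with a median of 4289.5 UMIs, and 13 barcode sequences occurred in both. The gate removed most of this gap in depth. PATS-like barcodes had a median of 44247 UMIs with normal FBs and 46298 UMIs with fibrogenic FBs, against 44350 and 45649 in the other Epcam+ barcodes. At least 10000 UMIs were held by 3795 of 5441 barcodes with normal FBs and by 3550 of 8894 with fibrogenic FBs. The depth limit thus left out a larger part of the fibrogenic library, and shares are of the barcodes that remained.

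Cldn4 and Sprr1a, a marker of the gate and a gene far higher in it, were the only ones of 7 genes with a RefSeq promoter entry (15 were looked up) whose window from 250 bases before to 50 bases after the start of the gene held the AP-1 motif TGANTCA, which reads the same on both strands. Each held it 2 times. Of 32851 mouse promoter windows, 7.81% held the motif at least once and 0.460% at least 2 times. The first 150 bases of both windows are shown because AP-1 genes are among the groups described further on. They are RefSeq sequence of GRCm38.p6 on the minus strand, Cldn4 at chr5:134947035-134947184 and Sprr1a at chr3:92485982-92486131. Capitals mark the motif, which starts 240 and 158 bases before the start of Cldn4 and 146 and 116 bases before that of Sprr1a.
Cldn4: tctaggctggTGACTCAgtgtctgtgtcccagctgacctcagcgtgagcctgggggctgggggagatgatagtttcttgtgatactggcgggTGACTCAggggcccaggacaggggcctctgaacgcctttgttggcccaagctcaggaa
Sprr1a: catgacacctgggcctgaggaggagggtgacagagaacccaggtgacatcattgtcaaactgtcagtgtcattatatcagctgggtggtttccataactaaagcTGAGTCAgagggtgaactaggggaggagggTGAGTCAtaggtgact
The motif GGAATG of the TEAD factors, on either strand, was in 1 of the 7 genes (Grip1) and in 14.7% of all windows. These matches are letters in a window and say nothing of binding.

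PATS-like barcodes made up 7.39% (146 of 1975, interval 6.28 to 8.64) of the Epcam+ barcodes with normal FBs and 11.7% (194 of 1655, interval 10.2 to 13.4) with fibrogenic FBs. The intervals did not overlap, but they describe barcodes of 1 library each and not the mice. The Epcam+ group also held barcodes with FB RNA. Barcodes with at least 1000 CPM of Col1a1, Col1a2 and Col3a1 together, called collagen-rich here, were 2 (1.37%) and 9 (4.64%) of the PATS-like barcodes, and 284 (15.5%) and 331 (22.7%) of the other Epcam+ barcodes. Without them the share was 8.53% (interval 7.24 to 9.96) with normal FBs and 14.1% (interval 12.2 to 16.1) with fibrogenic FBs. After every barcode was thinned to 10000 UMIs before gating, the shares were 9.01% and 14.4%. The fibrogenic share was above the normal share in each of these settings.

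The gate cut through a continuous range. The PATS-like barcode nearest to the limit had 1032 CPM of Cldn4 and Sfn with normal FBs and 1022 CPM with fibrogenic FBs, and the nearest barcode below had 988.1 and 988.6 CPM. For Krt19 the nearest values were 1008 and 1026 CPM inside, and 995.0 and 999.1 CPM outside. No more than 25% above the limit lay 5 and 12 barcodes for Cldn4 and Sfn, and 9 and 12 for Krt19. A further 50 and 41 Epcam+ barcodes passed the limit on Cldn4 and Sfn alone, and 54 and 38 passed that on Krt19 alone. FB-like barcodes were chosen to hold no Epcam UMI, so low levels of the gate genes there are partly fixed by that choice. None of the 1755 FB-like barcodes with normal FBs and none of 1799 with fibrogenic FBs reached both limits. Taking 3 counts over the number of barcodes, an approximate bound and not an exact interval, shares of up to 0.171% and 0.167% are allowed.

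Clusters made without the gate genes or any listed gene brought the same barcodes together. Of 13 clusters of Epcam+ barcodes, 1 held 143 of 146 PATS-like barcodes (97.9%) with normal FBs and 182 of 194 (93.8%) with fibrogenic FBs. That cluster had 435 barcodes, 193 with normal and 242 with fibrogenic FBs, and PATS-like barcodes were 74.1% and 75.2% of it. Its leading genes were Grip1, Fermt1, Krt17, Cldn4, Sprr1a, Ctse, Prss22, Myl7, Msln and Mcam. Cldn4 is a gate gene, so its place among them is partly fixed by the gate. The cluster's 50 and 60 barcodes below the gate held 594 and 642 CPM of Cldn4. They had lower Krt8 (1815 and 1833 CPM, against 4536 and 4673 CPM in the PATS-like barcodes of the cluster). Their summed levels of AEC1 genes were higher (4880 and 7580 CPM, against 2166 and 3783 CPM). Those of AEC2 genes were higher as well (38224 and 17912 CPM, against 6678 and 4366 CPM). The cluster led by the AEC1 genes Sec14l3, Rtkn2 and Clic5 held no PATS-like barcode of the normal library and 4 of the fibrogenic library.

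**Figure D1:**
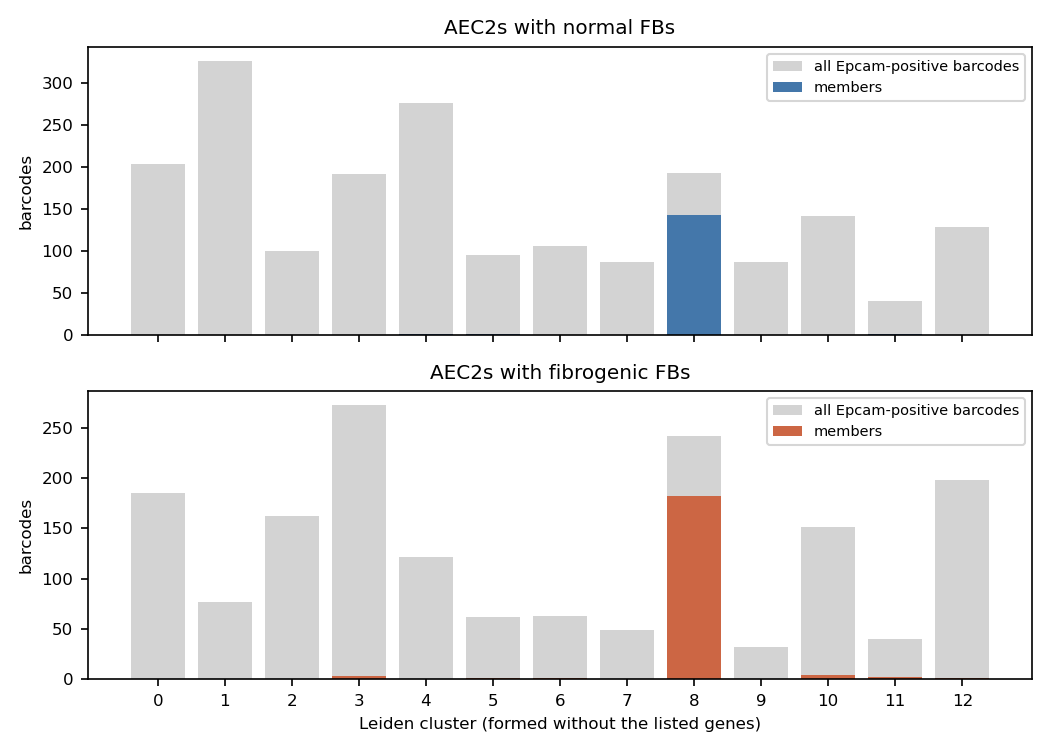
PATS-like barcodes of each library over the 13 clusters of Epcam+ barcodes, with normal and with fibrogenic FBs. A single cluster held 97.9% of the normal and 93.8% of the fibrogenic PATS-like barcodes.

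A marker of the label that the gate did not use was higher too. It is a keratin like Krt19 of the gate, so its level is no test of the label. Krt8, a keratin of transitional epithelium that the gate left aside, was at 4426 CPM (interval 4379 to 4473) in PATS-like barcodes and 410 CPM in other Epcam+ barcodes with normal FBs, and at 4492 CPM (interval 4451 to 4533) and 347 CPM with fibrogenic FBs. Per barcode, Krt8 ran from 554 to 16654 CPM with a median of 4036 with normal FBs, and from 799 to 18381 CPM with a median of 3649 with fibrogenic FBs. The medians of the other Epcam+ barcodes were 358 and 328 CPM. The lowest PATS-like barcodes thus overlapped the other Epcam+ barcodes, while the median lay far above their upper quartile of 537 and 514 CPM. The gate genes themselves were, by construction, high. Cldn4 was at 862 and 1148 CPM against 23.7 and 34.3, Sfn at 2438 and 2137 CPM against 123 and 126, and Krt19 at 2753 and 2838 CPM against 241 and 165.

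**Figure D2:**
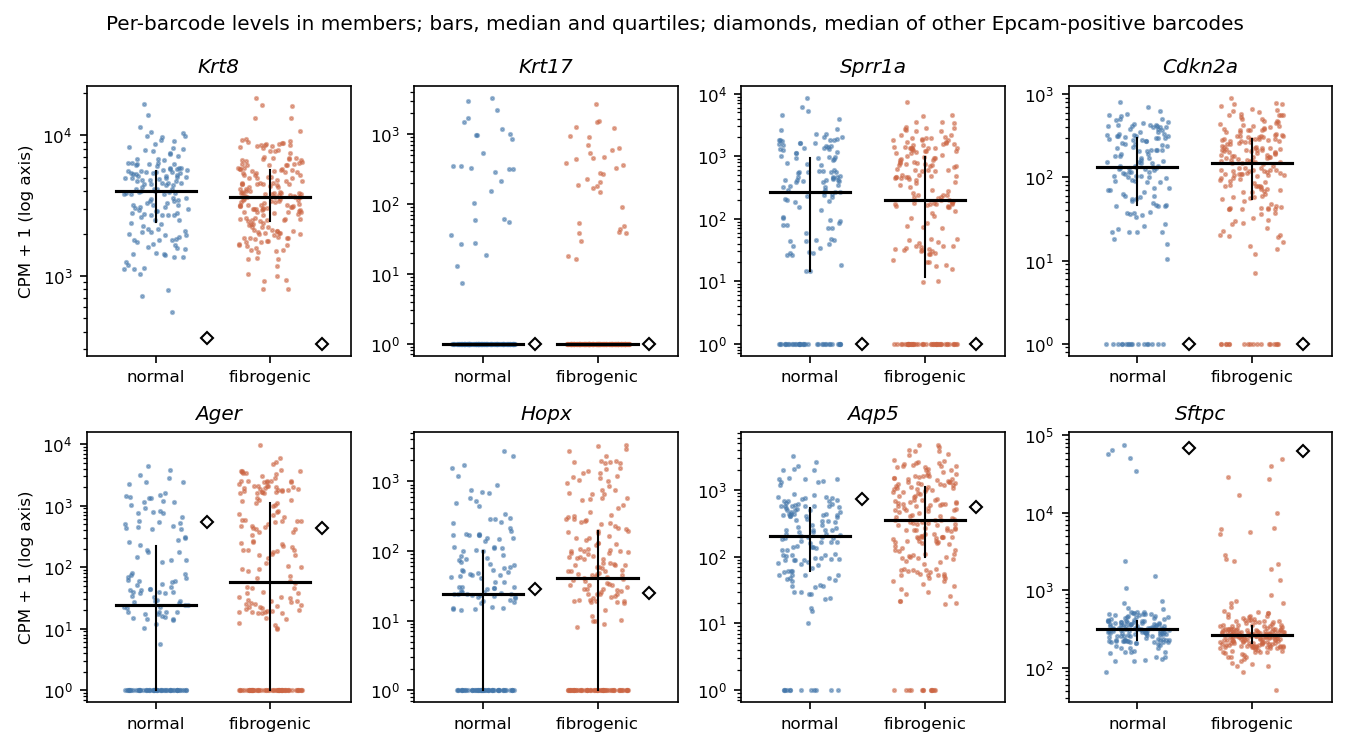
CPM + 1 (log axis) per PATS-like barcode of Krt8, Krt17, Sprr1a, Cdkn2a, Ager, Hopx, Aqp5 and Sftpc in both libraries. Bars mark the median and quartiles and diamonds the median of the other Epcam+ barcodes. Krt8 lay above the diamonds, Krt17 was 0 in most barcodes, the upper quartile of Ager was 218 CPM with normal and 1112 CPM with fibrogenic FBs, and Sftpc was far below the diamonds in most barcodes.

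Over all genes, 980 of 8428 measured genes (11.6%) were higher and 867 (10.3%) lower in PATS-like than in other Epcam+ barcodes with normal FBs. With fibrogenic FBs, 699 of 8487 (8.24%) were higher and 859 (10.1%) lower. The median gene was shifted by 0.20 and 0.13 on the log2 scale, and ratios centred on it gave 716 higher and 1046 lower with normal FBs, and 565 higher and 1011 lower with fibrogenic FBs. Without collagen-rich barcodes 13.8% of genes were higher and 9.87% lower with normal FBs, and 11.5% higher and 9.61% lower with fibrogenic FBs. The same contrast chose the barcodes, so these counts and those of the gene groups in this contrast are a description and nothing is read from their size. Of the genes called higher, 619 were called in both libraries (63.2% of the normal and 88.6% of the fibrogenic calls), and of those called lower, 656 were (75.7% and 76.4%).

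Genes of the transitional state, a list that holds none of the gate genes, were mostly higher. Of 20 measured, 16 were higher in each library and 0 lower, with a median log2 ratio of 2.57 with normal FBs and 2.20 with fibrogenic FBs. Clu, a secreted chaperone, was the most abundant of them at 14810 and 15409 CPM, against 637 and 850 CPM in other Epcam+ barcodes. Sprr1a, a small proline-rich protein of the cornified envelope, had the highest ratio of the list at 5.13 and 4.57 (662 and 735 CPM). Cstb, a protease inhibitor, had a ratio of 0.76 and 0.73, and Areg, an EGF receptor ligand, of 0.56 and 0.93. These 2 and Hbegf and Anxa2 were the list members not called.

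Most measured keratins and junction genes, which build the cytoskeleton and the seal between epithelial cells, were higher than in other Epcam+ barcodes. Of 14 keratins 7 were measured, and 6 of these were higher in each library, Krt19 of the gate included (median ratio 3.43 and 3.69). A gene can pass the filter through its level in PATS-like barcodes alone, which favours higher calls. Among the higher keratins were Krt18 (5296 and 5615 CPM against 411 and 372) and Krt7 (2703 and 2704 CPM against 278 and 240). Krt23 was the exception, with ratios of -0.66 and 0.57. Krt17, a keratin of stressed epithelium, had the highest keratin ratio (log2 ratio of 6.0 with normal and 4.85 with fibrogenic FBs, at 121 and 70.8 CPM) and the most uneven spread. It had a UMI in 29 of 146 and 35 of 194 PATS-like barcodes, the median was 0 and the highest barcodes reached 3267 and 2680 CPM. At a common depth of 10000 UMIs, Krt17 was detected in 14.4% of PATS-like barcodes of each library. Of 11 tight junction genes, 7 were higher with normal FBs and 6 with fibrogenic FBs (median 1.35 and 1.47), Cldn4 of the gate included. Cldn6, a claudin of immature epithelium, rose by 5.08 with normal FBs to 88.9 CPM and by 4.32 with fibrogenic FBs to 67.5 CPM. Cldn18, the claudin of mature alveolar epithelium, had the lowest ratio with both FBs, -0.65 and 0.21. The tight junction list summed to 3493 and 4154 CPM in PATS-like barcodes. It was higher in AEC1-rich barcodes outside the gate (defined below), at 5270 and 5988 CPM.

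Contractile and adhesion genes were higher in the same barcodes. Of 18 genes, 15 were higher with normal FBs and 11 with fibrogenic FBs (median 1.72 and 1.12), and without collagen-rich barcodes 16 were in each library (median 1.85 and 1.79). The actin crosslinker Actn1 was at 1043 and 929 CPM against 97.2 and 162, and the tropomyosin Tpm2 at 1330 and 1128 CPM against 96.4 and 252. Vim, the intermediate filament of mesenchymal cells, was the single lower gene (64.4 and 84.4 CPM against 280 and 641), but its direction followed the collagen-rich barcodes. Without them the Vim ratio was 0.77 and 0.51. The same held for Timp1, a metalloprotease inhibitor that FBs express at 4509 and 4799 CPM, whose ratio was -1.91 and -3.35 with and 1.55 and 0.18 without the collagen-rich barcodes.

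Matrix and integrin genes included 14 higher and 1 lower of 22 with normal FBs, and 12 higher and 3 lower with fibrogenic FBs (median 1.33 and 1.12). Without collagen-rich barcodes 17 and 16 of 22 were higher and 0 lower (median 1.87 and 1.45). Epithelial integrin subunits were among the higher genes. Itgb6, the subunit of the TGF-β-activating integrin αvβ6, was at 411 and 397 CPM against 67.2 and 77.6, and Itga2, a collagen receptor subunit, at 229 and 162 CPM against 9.96 and 14.3. Itgb4, the hemidesmosome subunit, was at 53.8 and 51.1 CPM against 1.68 and 1.78. Fibronectin (Fn1) was at 3083 and 2304 CPM against 530 and 957, and without collagen-rich barcodes its ratio was 4.97 and 4.00.

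The list for TGF-β and for the mechanosensitive factors YAP and TAZ holds ligands, receptors and Yap1 besides targets. Of 17 measured genes, 10 were higher with normal FBs (median 1.40). With fibrogenic FBs 5 of 17 were higher and 1 was lower (median 0.71). Ankrd1, a YAP target, was at 567 CPM (interval 551 to 584) and 518 CPM (interval 505 to 533), against 13.9 and 74.8 in other Epcam+ barcodes. Ccn2, connective tissue growth factor, was at 1386 and 1193 CPM against 80.7 and 152. The ligand Tgfb2 was at 181 and 171 CPM against 24.8 and 30.1. Tgfb1 had ratios of 0.11 and -0.54, and Yap1 itself of 0.27 and 0.29. With collagen-rich barcodes left out, 10 of 16 genes were higher with normal FBs and 8 of 16 with fibrogenic FBs, and 0 were lower (median 1.56 and 1.02), where 13.8% and 11.5% of all genes were higher. Genes of the EGF family and its feedback showed little, with 0 higher of 9 in each library and 1 and 2 lower (median -0.09 and 0.31). The feedback inhibitor Errfi1 was lower with normal FBs (140 CPM against 342).

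p53 targets were also mostly higher, with 14 of 20 higher with normal FBs and 11 of 20 with fibrogenic FBs and 0 lower (median 1.39 and 1.09). Without collagen-rich barcodes 14 of 19 and 14 of 20 were higher (median 1.67 and 1.52). The cell cycle inhibitor Cdkn1a was at 786 and 823 CPM against 207 and 302. Pmaip1, which encodes the proapoptotic protein NOXA, rose from 2.47 to 106 CPM and from 4.31 to 125 CPM. Perp, a desmosomal p53 target, was at 85.5 and 78.6 CPM against 5.80 and 4.74, and Sesn2 had a ratio of -0.17 and 0.04. Senescence genes went both ways. Of 16 and 17 measured genes, 5 were higher and 4 lower in each library (median 0.29 and -0.01). The higher ones included the cell cycle inhibitors Cdkn2a (185 and 187 CPM against 20.9 and 45.6) and Cdkn2b (421 and 383 CPM against 82.0 and 82.8). The lower ones included the secreted factors Ccl2, Il6 and Mmp3, which were at 156, 101 and 713 CPM in FB-like barcodes of the normal library. They fell below the filter or lost the call without the collagen-rich barcodes. With those left out, 5 of 13 and 5 of 14 senescence genes were higher and 1 was lower in each library. The median was then 0.60 and 0.42, where 13.8% and 11.5% of all genes were higher.

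Inflammatory and early response genes were mixed. Of 14 NF-κB genes, 8 were higher and 3 lower with normal FBs, and 7 higher and 2 lower with fibrogenic FBs (median 1.21 and 0.94). Tnip3, an NF-κB inhibitor, had the highest ratio (4.11 and 4.34), followed by the cytokine gene Csf2 (3.55 and 3.52, at 54.3 and 55.7 CPM). Lcn2, a siderophore-binding protein that AEC2-rich barcodes held at 6377 and 6067 CPM, was at 379 and 138 CPM. AP-1 and early genes were higher in 6 of 14 and 5 of 15, with 0 and 1 lower (median 0.78 and 0.69). Atf3 was at 364 and 509 CPM against 114 and 128, while Fos had ratios of -0.14 and 0.27. Among 16 stress genes, 4 were higher in each library and 1 and 2 lower (median 0.11 and 0.15), with the small heat shock gene Hspb1 highest with normal FBs (3.41) and Nupr1 with fibrogenic FBs (2.22), and Psat1 lowest (-1.80 and -1.85).

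Outside the lists, high ratios in both libraries belonged to Grip1, a PDZ scaffold protein, at 165 and 140 CPM against 2.06 and 1.69, and to Fermt1, the epithelial integrin activator kindlin-1, at 188 and 142 CPM against 3.24 and 2.17. The serine protease gene Prss22 (329 and 248 CPM against 7.21 and 6.24), the aspartic protease gene Ctse (223 and 167 CPM against 4.55 and 4.38) and the ligand gene Wnt10a (52.5 and 41.3 CPM against 0.588 and 0.962) were among the next, as were the myosin gene Myo3b (83.3 and 70.5 CPM against 1.79 and 1.89) and the membrane transporter gene Slc4a11 (54.1 and 48.0 CPM against 1.26 and 1.19). Grip1 was nearly absent from both mature types. It was at 0.15 and 0.38 CPM in AEC1-rich barcodes (the 10% of Epcam+ barcodes outside the gate with the highest AEC1 list) and at 0.64 and 0.54 CPM in AEC2-rich barcodes (the 50% with the highest AEC2 list). Msln, which encodes mesothelin, was at 297 and 370 CPM against 7.50 and 14.4, but it was the single measured gene of 5 mesothelial markers, and Upk3b had 0 UMIs in the PATS-like barcodes of both libraries.

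Markers of airway, basal, endothelial and immune cells were at or near 0, while the squamous, mesothelial and FB lists were not. None of 14 airway and basal cell markers was measured. Krt5 had 1 and 0 UMIs, Trp63 had 0 and 0, and Krt14 had 0 and 1 UMIs over all PATS-like barcodes. None of 7 endothelial markers was measured, and none of 8 immune markers was in this contrast, with Ptprc at 0 UMIs. The squamous list summed to 695 and 770 CPM. Of its 14 genes 2 were measured, Sprr1a and Ivl, and Ivl was lower with normal FBs (6.48 CPM against 32.8). FB markers were lower in PATS-like barcodes, 6 of 6 with normal FBs and 9 of 9 with fibrogenic FBs, with a summed level of 386 and 464 CPM and a median of 65.9 and 102 CPM per barcode (range 0 to 7835 and 0 to 7305) against 60.4 and 124 CPM in other Epcam+ and 9950 and 10228 CPM in FB-like barcodes. The calls rested on the collagen-rich barcodes, without which 0 of 3 measured FB genes were lower in either library. None of 4 measured sex genes was called. Cell cycle genes were lower in 12 of 16 (1 higher) and in 10 of 14 (0 higher). Mki67 was at 7 and 3.81 CPM against 43.2 and 34.1. The median per barcode of the summed cell cycle list was 376 CPM with normal FBs, against 464 CPM in other Epcam+ barcodes. With fibrogenic FBs that median ran the other way, at 538 CPM against 424 CPM. The mitochondrial share of UMIs had a median of 3.34% and 3.29% in PATS-like and 4.80% and 5.08% in other Epcam+ barcodes.

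**Figure D3:**
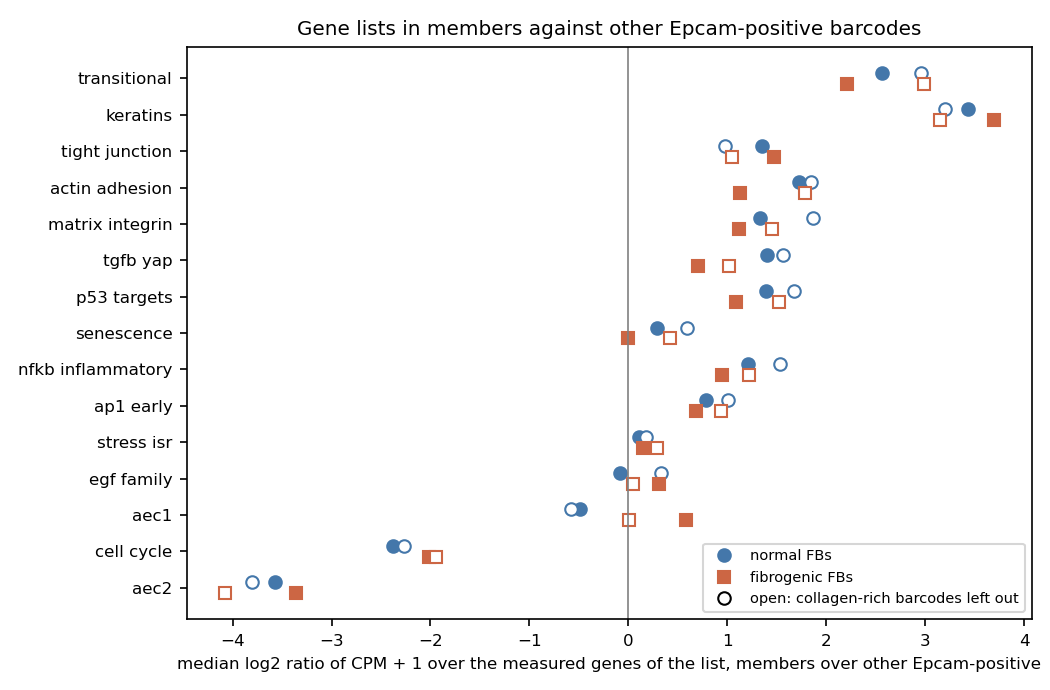
Median log2 ratio of PATS-like over other Epcam+ barcodes for each gene list in each library. Filled points use all barcodes and open points leave collagen-rich barcodes out. Keratins, transitional, matrix, actin and p53 lists lay above 0 and AEC2 and cell cycle lists below 0 in both libraries, while the AEC1 median was -0.49 with normal FBs and 0.58 with fibrogenic FBs.

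AEC2 genes were lower in PATS-like barcodes, and their levels there were uneven among genes. Of 27 genes, 27 were lower with normal FBs and 25 with fibrogenic FBs (median -3.57 and -3.36). Sftpc, the surfactant gene that defines AEC2s, had a median of 310 CPM per PATS-like barcode with normal FBs and 261 CPM with fibrogenic FBs. FB-like barcodes, which should lack it, had 298 and 246 CPM, and the other Epcam+ barcodes had 68842 and 63666 CPM. The median of Sftpc in PATS-like barcodes was thus close to that in FB-like barcodes of the same library. The part of free RNA was not tested. The AEC2 list as a whole was higher than in FB-like barcodes, with a lower quartile of 1453 and 1389 CPM in PATS-like barcodes against an upper quartile of 1137 and 1227 CPM in FB-like barcodes. Ctsh, a cathepsin gene and the list member with the highest ratio (-1.28 and -0.52), was at 675 and 759 CPM against 42.6 and 67.3 CPM in FB-like barcodes, and had a UMI in 146 of 146 and 194 of 194 PATS-like barcodes. No PATS-like barcode reached the lower quartile of AEC2-rich barcodes on the AEC2 list (142550 and 135081 CPM). The highest PATS-like barcodes were at 127839 and 69533 CPM, and the lowest AEC2-rich barcodes at 123704 and 115150 CPM. With normal FBs the ranges thus overlapped. Among genes outside the lists, Ros1, a receptor tyrosine kinase gene, was at 0.259 and 0.293 CPM against 31.0 and 30.7, Aox3 at 0.259 and 1.08 CPM against 53.1 and 41.0, and Lrg1 at 57.0 and 25.6 CPM against 1296 and 905. The 5 highest PATS-like barcodes carried 93.1% of the Sftpc UMIs with normal FBs and 66.4% with fibrogenic FBs, but 21.1% and 14.7% of those of Ctsh.

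AEC1 genes differed between both libraries inside the gate and are described next. With normal FBs, 6 of 16 measured AEC1 genes were lower in PATS-like than in other Epcam+ barcodes and 0 higher (median -0.49). With fibrogenic FBs, 5 were higher and 2 lower (median 0.58). Both medians depended on the barcodes compared. Without collagen-rich barcodes the fibrogenic median was 0.0021, with 2 of 16 genes higher and 2 lower, where 11.5% and 9.61% of all genes were, and with both gate limits at 500 CPM the normal median turned to 0.34. Cav1, a defining AEC1 gene of the lung, was below the filter, at 7.91 and 8.02 CPM in PATS-like barcodes.

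Within the gate, few genes differed between fibrogenic and normal FBs. Of 8203 measured genes, 43 (0.524%) were higher and 28 (0.341%) lower with fibrogenic FBs. In the other Epcam+ barcodes 177 of 8342 (2.12%) were higher and 22 (0.264%) lower. The latter count moved with FB RNA. Without collagen-rich barcodes it was 17 higher and 9 lower of 7942, and the count within the gate was 21 higher and 31 lower of 8163. With both gate limits at 500 CPM the balance within the gate turned, to 14 higher and 60 lower. Transitional genes (median log2 ratio 0.12), keratins (0.04), actin and adhesion genes (-0.03), matrix genes (-0.05), TGF-β and YAP genes (-0.12), EGF family genes (0.24), p53 targets (0.11), stress genes (0.14) and early genes (0.14) had 0 genes called. Without collagen-rich barcodes Vim of the actin and adhesion list was called higher (1.29). Krt8 had a ratio of 0.02, Sprr1a of 0.15, Cdkn1a of 0.07 and Cdkn2a of 0.01.

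Ager, Hopx, Aqp5, Clic5 and Cldn18, genes of mature alveolar epithelium, were among the genes called higher. Ager, the advanced glycation receptor abundant on AEC1s, was at 290 CPM (interval 278 to 302) with normal FBs and 722 CPM (interval 706 to 739) with fibrogenic FBs, a log2 ratio of 1.31. Hopx, a homeodomain gene of AEC1s, was at 121 and 297 CPM (1.29), the water channel Aqp5 at 370 and 799 CPM (1.11), and the chloride channel protein Clic5 at 40.7 and 110 CPM (1.41). These 4 were the genes called among 14 measured on the AEC1 list (0 lower, median 0.60). In the other Epcam+ barcodes 0 were called (median -0.07), with Ager at -0.31, Hopx at -0.08, Aqp5 at -0.54 and Clic5 at -0.17. Without collagen-rich barcodes the median of the list was 0.18 there, with 0 of 16 genes called, and 0.58 within the gate. Barcodes below the gate in the cluster that held most PATS-like barcodes were also higher with fibrogenic FBs, Ager at 948 and 1394 CPM, Hopx at 522 and 940 CPM and Aqp5 at 898 and 1373 CPM with normal and fibrogenic FBs. Cldn18 had a ratio of 1.02 within the gate and 0.15 outside it. Without collagen-rich barcodes the within-gate ratios were 1.32, 1.29, 1.06 and 1.37 for Ager, Hopx, Aqp5 and Clic5, and 0.99 for Cldn18. With both gate limits at 500 CPM they were 0.64 for Ager, 0.67 for Hopx and 0.73 for Aqp5, below the call and in the same direction.

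AEC1 genes spread widely among the PATS-like barcodes. The 5 highest barcodes held 63.7% of the Clic5 UMIs with normal and 41.8% with fibrogenic FBs, and Clic5 had a UMI in 36 of 146 and 68 of 194. They held 43.8% and 33.5% of the Hopx, 35.5% and 20.8% of the Ager and 22.9% and 26.9% of the Aqp5 UMIs. The median of Ager was 23.0 CPM with normal and 56.9 CPM with fibrogenic FBs, and the upper quartile was 218 and 1112 CPM, with the highest barcodes at 4350 and 9735 CPM. Hopx had medians of 23.1 and 39.3 CPM and upper quartiles of 100 and 195 CPM, and Aqp5 medians of 200 and 355 CPM and upper quartiles of 530 and 1104 CPM. In FB-like barcodes the upper quartile was 6.54 and 10.2 CPM for Ager and 0 for Hopx and Aqp5. The ranges of both libraries overlapped from 0 upward for each of these genes.

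Barcodes with at least 5000 CPM over the AEC1 list, a limit set after the values were seen, were 18 of 146 (12.3%, interval 7.47 to 18.8) with normal FBs and 49 of 194 (25.3%, interval 19.3 to 32.0) with fibrogenic FBs. The AEC1-high barcodes had fewer UMIs than the rest, with a median of 35346 against 44805 with normal FBs and of 42774 against 47260 with fibrogenic FBs, and the part of depth was not tested. AEC1-rich barcodes were the top 10% of the other Epcam+ barcodes, so by construction few of that group reach their lower quartile. PATS-like barcodes that reached it (13402 and 14831 CPM) numbered 4 (2.74%) and 7 (3.61%). Their median depth was 27925 UMIs against 44388 in the rest with normal FBs, but 77350 against 45961 with fibrogenic FBs, and the part of doublets, which were not removed, was not tested. With normal FBs these AEC1-high PATS-like barcodes held less Krt8 (2591 CPM against 4628 in the rest), Fn1 (783 against 3336), Cdkn2a (70.7 against 198) and Ccn2 (723 against 1459). With fibrogenic FBs Krt8 was closer to the rest (4153 CPM against 4609), as was Ccn2 (1089 against 1229), while Fn1 (1252 against 2667) and Cdkn2a (129 against 207) were lower. Sprr1a was at 368 against 694 CPM and 370 against 861 CPM. In the rest, 128 and 145 barcodes, Ager was at 136 and 168 CPM and Hopx at 45.9 and 38.8 CPM. Aqp5 was there at 265 and 319 CPM and Clic5 at 7.05 and 6.71 CPM. The AEC1 list summed to 1588 and 1607 CPM in the rest. The split was made on that list, which limits how far the rest can differ. AEC1-high barcodes of both libraries also held more AEC2 RNA, with medians over the AEC2 list of 6274 CPM against 1845 in the rest with normal FBs and of 5635 against 1802 with fibrogenic FBs.

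**Figure D4:**
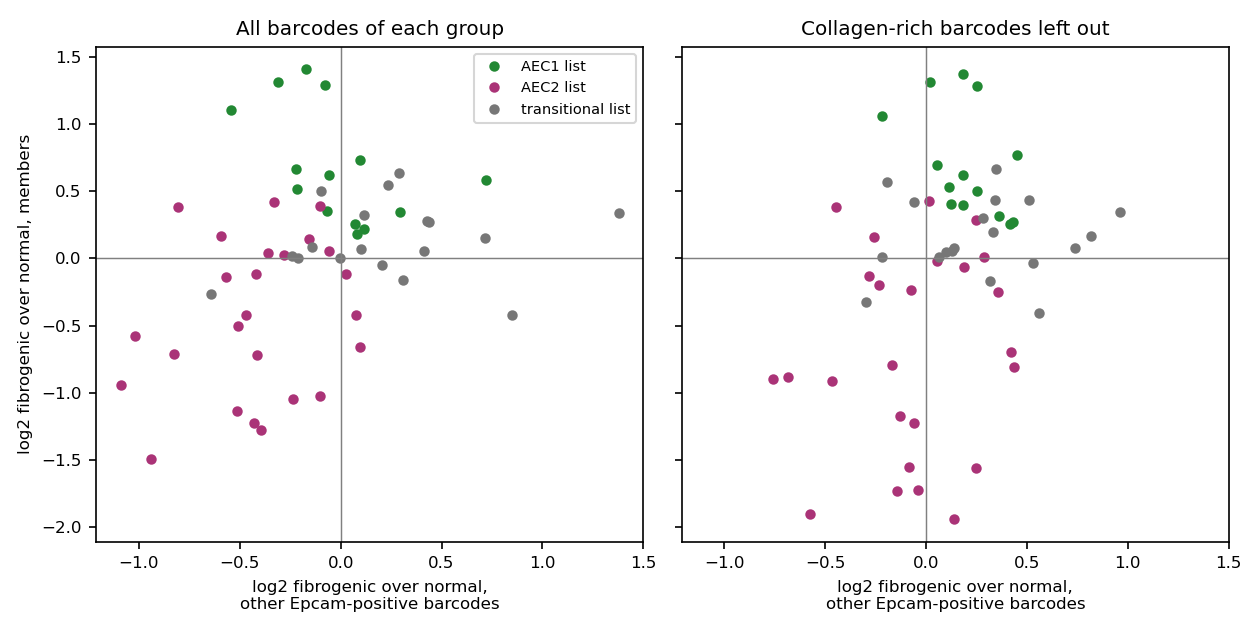
Log2 ratio of fibrogenic over normal FBs for AEC1, AEC2 and transitional genes, other Epcam+ barcodes on the x axis and PATS-like barcodes on the y axis, for all barcodes and with collagen-rich barcodes left out. Ager, Hopx, Aqp5 and Clic5 lay above 1 on the y axis in both panels and at 0.25 or below on the x axis, and transitional genes lay between -0.42 and 0.66 on the y axis.

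The summed levels of AEC2 genes were lower with fibrogenic FBs, 6 of 25 measured genes being called lower and 0 higher (median -0.42). In the other Epcam+ barcodes the median was similar at -0.39, with 2 of 27 genes lower. Without collagen-rich barcodes it was -0.79 within the gate (8 of 25 lower) and -0.07 outside it (0 of 27 lower). Within the gate Sftpc was at 4214 CPM with normal and 1736 CPM with fibrogenic FBs (ratio -1.28), Cxcl15 at 426 and 150 CPM (-1.50), and Lamp3 at 19.7 and 7.82 CPM (-1.23). These sums rested on few barcodes. The 5 highest normal PATS-like barcodes carried 87.8% of the Cxcl15 and 80.9% of the Lamp3 UMIs besides 93.1% of those of Sftpc. The median over barcodes of the AEC2 list ran the other way, from 1911 CPM with normal to 2333 CPM with fibrogenic FBs. Lcn2 (-1.45), Trf, which encodes transferrin (-1.66), and Tmem213 (-1.86) showed the same dependence, the 5 highest normal barcodes holding 72.1%, 90.9% and 85.2% of their UMIs.

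Among the 12 highest ratios within the gate, 8 came mainly from collagen-rich barcodes. For Plac8 (3.03), Mmp3 (2.37), Lpl (2.20), Ndufa4l2 (2.18), Saa3 (2.09), Adm (1.98), Cxcl12 (1.94) and Serpinf1 (1.52), the 9 collagen-rich fibrogenic PATS-like barcodes carried between 62.8% and 94.1% of the UMIs, and these genes fell below the filter without them. Cxcl14, a chemokine gene of FBs and the lowest ratio (-2.58), took 93.8% of its normal UMIs from 2 collagen-rich barcodes. Ifit3, an interferon-induced gene, remained at 2.44 without them, Fxyd4 at 1.99, Nppb at 1.49 and Clic3 at 1.45. Ifit3 had 25 UMIs in 10 normal and 222 UMIs in 39 fibrogenic PATS-like barcodes, and the 5 highest fibrogenic barcodes held 61.3%. Ifit3, Fxyd4 and Clic3 were also high in AEC1-rich barcodes, at 186, 153 and 1007 CPM with normal FBs and 149, 92.0 and 835 CPM with fibrogenic FBs. Nppb, which encodes brain natriuretic peptide, was at 0 in AEC1-rich and AEC2-rich barcodes of both libraries and at 8.94 and 27.4 CPM in PATS-like barcodes. It had a UMI in 25 of 146 and 33 of 194 of them, and the 5 highest fibrogenic barcodes held 70.7% of its UMIs, as they did 75.1% of those of Fxyd4.

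Olfm2, Shank2 and Ppp2r2b were lower with fibrogenic FBs and drew 0% to 6.72% of their UMIs from collagen-rich PATS-like barcodes. Olfm2 was at 96.4 CPM with normal FBs and 41.1 CPM with fibrogenic FBs (ratio -1.21), against 3.26 and 4.69 CPM in other Epcam+ barcodes, and the 5 highest barcodes held 19.6% and 18.8% of its UMIs. Shank2, a synaptic scaffold gene, was at 29.7 and 10.7 CPM (-1.40) and Ppp2r2b at 14.6 and 5.38 CPM (-1.29). The smooth muscle actin gene Acta2 was at 231 and 67.1 CPM (-1.77), with 65.9% of the normal UMIs in 5 barcodes and a median of 0 and 10.5 CPM. Ltbp2, a latent TGF-β binding protein gene, was at 40.4 and 16.3 CPM (-1.26). In the other Epcam+ barcodes both went up with fibrogenic FBs, Acta2 by 1.63 and Ltbp2 by 1.48.

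The genes whose difference within the gate exceeded that outside it the most were Fxyd4, Ifit3, Lpl, Saa3, Clic3 and Plac8. Among those that fell below it the most were Acta2, Ctla2a, Cnn1, Ltbp2 and Akap12. For Ctla2a, Cnn1 and Akap12 the ratios within the gate were -0.87, -0.69 and -0.62, and those outside it, where 22.7% of the fibrogenic barcodes were collagen-rich, were 2.11, 2.15 and 2.10. Other list genes called within the gate were Mmp3 (senescence list, 1 higher of 14) and Cldn18 (tight junction list, 1 higher of 12). Lcn2 (NF-κB list, 1 lower of 12) and Cd68 (immune list, 5.96 and 14.3 CPM) were also called. Cd68 was the single measured gene of 8 immune markers and reached the filter through its fibrogenic level. Without collagen-rich barcodes 0 of 8 immune markers were measured. Of 7 measured cell cycle genes, 0 were called.

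Some groups varied with how far a barcode lay above the limit and others did not. PATS-like barcodes with 1000 to 2000 CPM of Cldn4 and Sfn numbered 23 with normal and 49 with fibrogenic FBs, those with 2000 to 4000 CPM 82 and 92, and those above 4000 CPM 41 and 53. From the first to the last of these ranges Krt8 went from 3159 to 4095 and 6064 CPM with normal FBs and from 2740 to 4423 and 6366 CPM with fibrogenic FBs. The summed TGF-β and YAP list went from 3770 to 4990 and 6017 CPM and from 3509 to 4381 and 5679 CPM. The matrix and integrin list did not follow this order (8025, 7503 and 8396 CPM with normal and 5811, 7017 and 6735 CPM with fibrogenic FBs), nor did p53 targets with normal FBs (2421, 3225 and 2880 CPM). Ankrd1 went from 279 to 602 and 698 CPM with normal FBs and from 270 to 381 and 1004 CPM with fibrogenic FBs. The AEC1 list went the other way with normal FBs (3181, 2113 and 1850 CPM), and with fibrogenic FBs it was at 4417, 3717 and 3885 CPM. In each range the AEC1 list was thus higher with fibrogenic than with normal FBs. The AEC2 list fell over the ranges, at 21580, 7561 and 2524 CPM with normal and 8670, 4857 and 3801 CPM with fibrogenic FBs. The FB list had its highest level in the first range (1293 and 848 CPM) and its lowest in the last (100 and 128 CPM). The part of the AEC2 and FB lists in these differences was not tested.

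**Figure D5:**
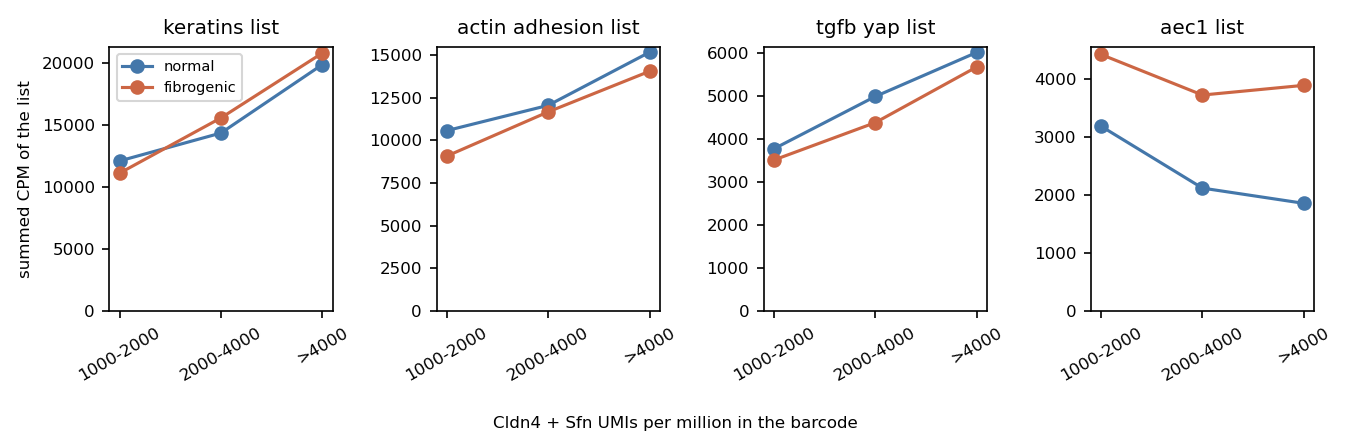
Summed CPM of the keratin, actin and adhesion, TGF-β and YAP, and AEC1 lists in PATS-like barcodes over 3 ranges of Cldn4 and Sfn (CPM), normal and fibrogenic FBs. The first 3 lists increased over the ranges in both libraries, and the AEC1 list was higher with fibrogenic FBs in each range.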

How the data were processed

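Single cells of 2 organoid cultures, in a series of 6 droplet libraries, were sequenced for RNA. The authors deposited UMI counts for each gene and cell barcode that were not normalized, and the submitters' processing notes name Cell Ranger 3.0.1, Seurat 3 and mm10. The barcodes described and the 22 gene lists were chosen with earlier results of these data known. Counts were summed over the barcodes of a group and expressed as CPM, and groups were compared as log2 ratios after 1 CPM was added, for genes with a mean of at least 10 CPM. With 1 library per condition no p-value was computed. The precision at this depth is given by exact 95% intervals. FB-like barcodes had at least 10000 UMIs, at least 1000 CPM of Col1a1, Col1a2 and Col3a1, and no Epcam UMI.

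Barcodes were also thinned to 10000 UMIs. Clusters of Epcam+ barcodes were made without listed genes, from 2000 variable genes, 30 principal components and 20 neighbours, by the Leiden algorithm at a resolution of 1. Named genes were the gate markers and Krt8, both extremes of every list, the 12 highest and 12 lowest ratios against other Epcam+ barcodes and between FBs, the 6 genes at each end of the difference between both ratios, other list genes where their list is described, and control genes. The text gives part of these genes, and 1 gene is not reported here. Scrublet marked 2 (0.037%) and 0 barcodes, so its automatic limit did not work and doublets were not removed. The steps were tested on simulated data. Alternatives were other limits, depths, filters, pseudocounts and weights. Python 3.11.15, numpy 2.4.6, scipy 1.17.1, pandas 2.3.3, scanpy 1.11.5, anndata 0.12.19, igraph 0.11.9, scikit-learn 1.9.0 and matplotlib 3.10.9 were used.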

Additional observations from a re-analysis of the deposited data

Results flagged for a closer look

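Acta2 and Ltbp2 were singled out because fibrogenic over normal FBs moved them past the call in opposite directions inside and outside the gate. For Acta2 the log2 ratio was -1.77 in PATS-like barcodes and 1.63 in other Epcam+ barcodes. In PATS-like barcodes 65.9% of the normal Acta2 UMIs lay in 5 barcodes, and its median over barcodes ran the other way, 0 CPM with normal and 10.5 CPM with fibrogenic FBs. For Ltbp2 the ratio was -1.26 in PATS-like barcodes and 1.48 in other Epcam+ barcodes. The difference was not tested, since each condition had 1 library. Without collagen-rich barcodes Acta2 was at -1.46 and 1.47, and Ltbp2 at -1.22 in PATS-like barcodes and below the filter in the others.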

How the results depend on the processing

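The share of PATS-like barcodes with normal and fibrogenic FBs was 10.9% and 15.6% with both limits at 500 CPM, 4.00% and 6.47% at 2000 CPM, and 9.01% and 14.4% after thinning. With fibrogenic FBs it was 13.9% at 3 Epcam UMIs or more and 14.1% without collagen-rich barcodes. Against other Epcam+ barcodes, a mean of 1 CPM gave 1508 higher and 1816 lower genes with normal FBs and 1103 higher and 1870 lower with fibrogenic FBs, and 10 CPM added gave 637 higher with normal FBs. Within the gate, fibrogenic over normal FBs gave 14 higher and 60 lower genes at limits of 500 CPM, 67 higher at 2000 CPM, 21 higher without collagen-rich barcodes, 21 higher with the mean over barcodes, 162 higher and 96 lower at a mean of 1 CPM, and 18 higher and 11 lower with 10 CPM added. In other Epcam+ barcodes it gave 47 and 12 at 3 Epcam UMIs, 17 and 9 without collagen-rich barcodes, 70 and 14 with the mean over barcodes, 286 and 38 at a mean of 1 CPM, and 78 and 13 with 10 CPM added. Leaving out the 6% highest Scrublet scores, an alternative chosen after seeing the data, gave 279 higher. The cause of these shifts was not tested beyond what each setting changes.

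Hopx turned to 0.056 against other Epcam+ barcodes with normal FBs at limits of 500 CPM, Cxcl14 to 1.35 between FBs at 2000 CPM, and Acta2 to 1.37 against other Epcam+ barcodes with fibrogenic FBs without collagen-rich barcodes. At limits of 500 CPM the differences between FBs within the gate fell below the call for Ager (0.64), Hopx (0.67) and Aqp5 (0.73), in the same direction. Of the values for shares and counts of genes, 83 stayed within the spread allowed and 33 moved. No library was left out, because each condition had 1.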

Other observations

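Further genes went up with fibrogenic FBs inside the gate once collagen-rich barcodes were left out. They were chosen after their values were seen. Ndnf was at 94.7 CPM with normal and 212 CPM with fibrogenic FBs (log2 ratio 1.15), the semaphorin gene Sema3e at 22.6 and 50.4 CPM (1.12), Sema3a at 5.42 and 15.8 CPM (1.39), and the retinaldehyde dehydrogenase gene Aldh1a1 at 10.7 and 23.7 CPM (1.08). In the other Epcam+ barcodes without collagen-rich ones the ratios were 0.21 for Ndnf, 0.34 for Sema3e, 0.19 for Sema3a and 0.10 for Aldh1a1. Ndnf, Sema3e and Sema3a are on none of the lists and were high in AEC1-rich barcodes, at 833, 307 and 175 CPM with normal FBs and at 932, 354 and 157 CPM with fibrogenic FBs. Aldh1a1 was at 19.7 and 26.8 CPM there.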
